A study of Mus musculus with 8 samples.

Results

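Mouse embryonic stem cells in which transcription had been blocked and 4-hydroxytamoxifen (4OHT) then added were compared with untreated cells of the same culture system. The comparison takes 6 of the 8 single-colour Agilent mouse arrays, chosen by their titles: 3 of the 4OHT condition and 3 of the 0 h condition. In both groups the cells grew in medium with the self-renewal cytokine LIF and with 250 nM PD173074, an inhibitor of FGF receptors. The 4OHT cultures received 5 µM actinomycin D and, 30 min later, 250 nM 4OHT for 4 h, whereas the untreated cultures received neither agent. A further group of 2 arrays received actinomycin D in the same way and then ethanol vehicle, and its values are given beside the others where they bear on 4OHT. The titles of the untreated arrays also carry an abbreviation of actinomycin D, and every statement below rests on their treatment label and description, which say untreated. The labels name no transgene, clone or other target on which 4OHT would act in these cells, and no strain or passage. The design text calls the replicates biological.

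Actinomycin D binds DNA and stops RNA polymerases, so that no new RNA replaces the RNA that is degraded. What is left of an mRNA after such a block reflects its stability, and mRNAs of immediate early, feedback and regulatory genes are known for short half-lives, whereas mRNAs of ribosomal proteins and metabolic enzymes are known for long ones. 4OHT is the active metabolite of tamoxifen and a ligand of the estrogen receptor, and it is widely used to switch on proteins fused to a mutant form of that receptor. Embryonic stem cells are pluripotent cells in which Pou5f1, Sox2 and Nanog sustain the undifferentiated state and FGF4 signals through ERK toward differentiation.

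The labelled cell type was checked against its markers. All 8 embryonic stem cell markers examined were well above background on every array of both groups, between 4.28 and 8.36 on the untreated arrays in log2 units relative to the array's 75th percentile. Of 6 fibroblast markers, 3 were well above background on all 3 untreated arrays, and Postn was so on none. Their summed level ran from 1.27 to 1.84 untreated and from 1.94 to 2.11 with 4OHT, against 9.60 to 9.83 and 10.04 to 10.21 for the embryonic stem cell markers. The 4 primitive endoderm markers were dim, summed at −0.83 to −0.54 untreated and −2.35 to −1.94 with 4OHT. Of the 4 trophoblast markers 1 was well above background on all 3 untreated arrays, and Elf5 was so on none; their summed level was −3.88 to −2.14 untreated and −4.45 to −2.62 with 4OHT. All 3 neuroectoderm markers were well above background on every untreated array and 2 of them on every 4OHT array, summed at 3.36 to 3.60 untreated and 4.28 to 4.39 with 4OHT, with Tubb3 the brightest. The part of other cell types in the results below was not tested.

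The overall signal was lower after the block. Untreated arrays had a 75th percentile of 333, 457 and 405 in processed signal, against 209, 180 and 182 with 4OHT. The share of spots well above background was 61.0 to 75.7% untreated and 52.97 to 57.4% with 4OHT. Untreated replicate 2 stood apart, with 448 non-uniform spots against 2 to 14 on the other 7 arrays and a 25th percentile of 12.6 against 4.13 and 4.24 on the other untreated arrays. Correlations across genes, which are not independent replicates, were 0.991 to 0.994 within the 4OHT group, 0.987 to 0.994 within the untreated group and 0.956 to 0.962 between them. The 4OHT arrays lie on slide 1 and the untreated and vehicle arrays on slide 2, so slide and 4OHT cannot be told apart in any value that involves the 4OHT arrays.

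Values are given on a pair of scales. On the first, the log2 signal is taken relative to each array's 75th percentile, and a gene is called higher or lower there when it gained or lost relative to the bulk of the transcripts. On the second, it is taken relative to the mean of 8 Agilent E1A spike-in probes. Since the same amount of total RNA went into every labelling, a value on the spike-in scale is a signal per amount of RNA and not per cell. How the spike-in was added is not given in the sources used here. The array's 75th percentile itself was at 33.4% of untreated on the spike-in scale in the 4OHT group and at 41.3% in the vehicle group, which puts the scales 1.58 log2 apart for 4OHT. Taken singly, the spike-in probes gave 4OHT minus untreated differences from 0.09 to 0.79 log2, so the spike-in scale has an error of its own beyond the spread of replicates. Differences are log2 of 4OHT minus untreated on the 75th percentile scale unless the spike-in scale is named, with the standard error of a limma fit (n = 3 and 3) and a Benjamini-Hochberg adjusted p over 28491 features, called under 0.05.

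On the 75th percentile scale 17034 features were called (59.8% of those tested), of which 11692 were higher (41.0%) and 5342 lower (18.7%). Higher calls thus made up 68.6% of all calls, a share that went to 84.4% with normexp background correction. Among the 14930 genes with a symbol, 6523 were higher and 3204 lower, with a median difference of 0.33. The falls were far larger than the gains. A difference of at least 2-fold was reached by 1029 called genes upward and 1996 downward, one of at least 4-fold by 12 and 876, and 89 genes were at least 16-fold lower. On the spike-in scale 26622 features were lower (93.4%) and 29 were higher (0.102%), 10 of them genes with a symbol. The median gene kept 41.9% of its untreated signal there, and the 10th and 90th percentiles over genes were 12.6% and 64.1%. In all, 1128 genes kept less than 10% and 5061 kept more than 50%.

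**Figure D1:**
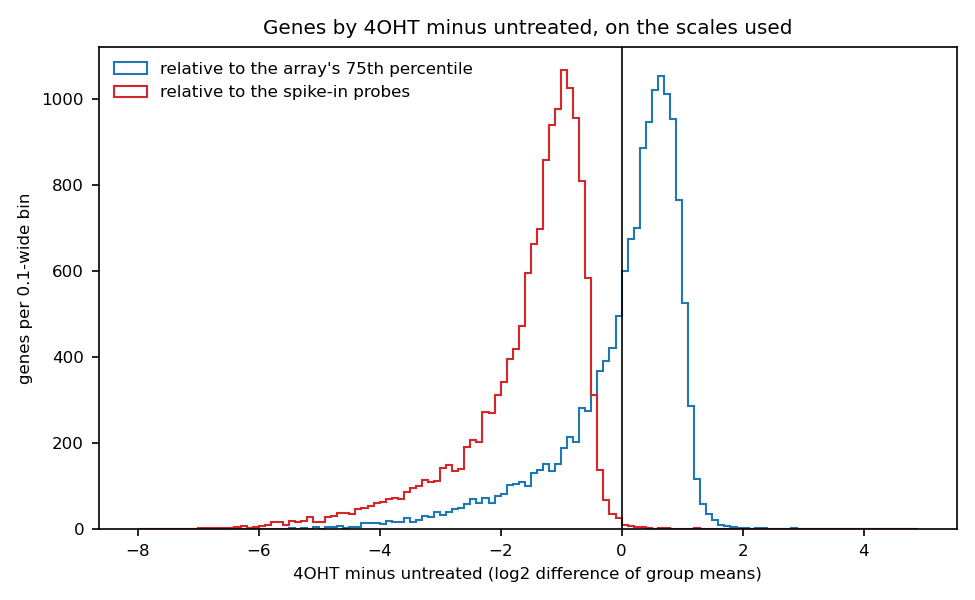
Number of genes with a symbol (y axis, per bin of 0.1) by the log2 difference of 4OHT minus untreated (x axis), relative to the array's 75th percentile (blue) and to the spike-in probes (red). The blue curve has its median at 0.33 and a long left tail, and the red curve, shifted left by 1.58, lies almost wholly below 0.

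When genes were split into 5 equal groups by their mean level over the arrays, the median difference was −0.04, 0.19, 0.25, 0.40 and 0.69 from the dimmest to the brightest group. In the brightest group 77.0% of genes were called higher and 7.87% lower, against 14.4% and 21.3% in the dimmest. That mean includes the 4OHT arrays, so a gene that fell is placed in a dimmer group. Split by the untreated level alone, a grouping chosen after seeing the data, the medians were 0.11, 0.24, 0.27, 0.35 and 0.65; 69.8% were called higher and 14.9% lower in the brightest group, against 19.6% and 14.2% in the dimmest. Quantile normalization, which gives every array the same distribution, lowered the gains of abundant genes, and it is named below where it ended a call. Many features left the measurable range: 1911 (6.71%) were well above background on all 3 untreated arrays and on 0 of 3 4OHT arrays. Of these, 572 have a symbol, 889 are probes for genomic intervals and 450 carry another accession. The reverse held for 4 features (0.0140%), of which 1 has a symbol, Prob1. For a gene with no 4OHT array well above background, the size is given as at least N-fold, which sets the untreated mean against the detection floor of the 4OHT arrays. The 572 genes with a symbol were picked as measurable on the untreated arrays only, so the direction of their change was set by that choice. Of them 363 were called lower and the rest were not, and for 67 the size was at least 4-fold. The 572 were dim at the start, with a median untreated level of −4.08 against 0.58 over all genes with a symbol.

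The genes named first are those with the largest falls. Zfp296, a zinc finger gene expressed in pluripotent cells, stood at 4.98, 4.85 and 4.87 on the untreated arrays and at −0.62 on each of the 4OHT arrays, a fall of 5.52 ± 0.09 (adjusted p = 1.15e-06) that left 0.7% of its signal on the spike-in scale. H1f5, a replication-dependent linker histone gene, went from 5.18, 5.07 and 5.01 to −0.48, −0.33 and −0.40, a fall of 5.49 ± 0.12 (adjusted p = 1.15e-06). Both kept a measurable signal in every culture, and their groups lay far apart. Wee1, the kinase that holds Cdk1 inactive before mitosis, fell by 5.23 ± 0.10 (adjusted p = 1.15e-06), from 3.04, 3.01 and 3.11 to −2.23, −2.03 and −2.27. Lefty1, a secreted inhibitor of Nodal, was at 3.66, 2.70 and 2.14 untreated and at −1.94, −2.35 and −2.41 with 4OHT, with a fall of 5.07 ± 0.39 (adjusted p = 8.88e-05). Its untreated arrays spread over more than 1 log2 unit, and the groups still did not overlap.

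Several of the largest falls ended below the detection limit. Fam43a went from 1.30, 0.74 and 1.08 to a signal that was not well above background on any 4OHT array, a fall of at least 46.4-fold (adjusted p = 1.31e-06). Chac1, a glutathione-degrading enzyme induced in the integrated stress response, fell at least 54.5-fold (adjusted p = 1.20e-04), Zfp87 at least 46.2-fold (adjusted p = 1.51e-06) and Snai1, a transcription factor of epithelial-mesenchymal transition, at least 23.2-fold (adjusted p = 4.14e-05). Med26, a Mediator subunit, fell by 5.15 ± 0.14 and Tmem185b by 5.09 ± 0.36. For 2 of the largest falls another probe of the gene gave a smaller value: Btg1, an anti-proliferative gene, fell by 5.41 ± 0.12 at the probe used against −1.04 at the other, and Lcmt2 gave −5.34 ± 0.22 against −2.68. Over the 3773 genes with several probes, the 2 brightest probes gave differences of 1 sign in 83.9%. In 11.7% these 2 probes were more than 1 log2 apart. Background correction by normexp, which compresses dim signals, gave −2.95 for Fam43a, −3.13 for Chac1, −2.60 for Zfp87, −2.02 for Snai1, −3.09 for Lcmt2 and −2.91 for Tmem185b, and each kept its direction.

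Immediate early genes are switched on within minutes by growth factor signals. Of the 29 tested of 30 listed, 23 were lower and 2 higher, against 18.7% and 41.0% of all features. The list median was −2.49 against 0.31 over all features, and the median member kept 5.9% of its spike-scaled signal. Myc, a regulator of growth and proliferation, was at 2.06, 2.09 and 2.16 untreated and at −2.63, −2.94 and −2.86 with 4OHT, a fall of 4.91 ± 0.11 (adjusted p = 1.15e-06; −3.36 with normexp). Ccn1, a secreted matrix protein, fell by 4.16 ± 0.13 (adjusted p = 2.69e-06; −2.66 with normexp). Egr1, a zinc finger transcription factor and a common readout of ERK activity, went from 2.54, 1.85 and 2.29 to −1.45, −1.72 and −1.43, a fall of 3.76 ± 0.20 (adjusted p = 1.74e-05). Fos, a component of AP-1, was dim at the start, at −1.35, −1.47 and −1.38, and fell at least 8.56-fold (adjusted p = 4.62e-06) to a level not well above background on any 4OHT array; normexp gave −0.76. Klf2, which also belongs to the naive pluripotency network, fell by 3.79 ± 0.12 from an untreated mean near 6, leaving 2.4% on the spike-in scale. Its 4OHT arrays read 2.03, 2.17 and 2.26.

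The 2 members called higher were Srf and Maff. Srf, the serum response factor that drives immediate early genes, was at 2.54, 2.57 and 2.32 untreated and at 3.18, 3.42 and 3.31 with 4OHT, a gain of 0.83 ± 0.11 (adjusted p = 5.64e-04) that is a loss of 0.76 on the spike-in scale. Maff, a small Maf transcription factor, gained 0.38 ± 0.13 (adjusted p = 0.0418; −1.20 on the spike-in scale). The call of Maff was lost without the filter (0.0863), with scaling to the array median (0.117), and when any 1 of the 4OHT or untreated arrays was left out, with adjusted p-values up to 0.116.

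Genes listed for feedback on the ERK pathway were also mostly lower. ERK induces phosphatases and adaptor proteins that then restrain it. The list also holds other genes, such as Ccnd1, Hbegf, Epha2 and Etv5. Of 21 tested members of 23 listed 15 were lower and 1 higher, against 18.7% and 41.0% of all features, with a median of −2.27. Dusp6, a phosphatase that inactivates ERK, was at 3.91, 3.82 and 4.13 untreated and at −0.32, −0.19 and −0.27 with 4OHT, a fall of 4.21 ± 0.20 (adjusted p = 1.15e-05). The 4OHT arrays lay close together and far below every untreated array. Spry4, an inhibitor of receptor tyrosine kinase signalling, fell by 3.91 ± 0.32 (adjusted p = 1.11e-04; −1.56 with normexp), with 1 of 3 4OHT arrays well above background. Spry1, of the same family, fell by 3.69 ± 0.25, from 1.50, 1.67 and 1.25 to −1.70, −2.54 and −2.43. For Dusp2, a nuclear phosphatase with a dim start, the loss was at least 6.64-fold (adjusted p = 3.21e-04); normexp gave −0.50. The higher member was Ccnd1, which encodes cyclin D1, at 0.67 ± 0.14 (adjusted p = 0.00608) and −0.92 on the spike-in scale; quantile normalization gave 0.24 (adjusted p = 0.165).

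The kinases and receptors upstream of these feedback genes were more often higher than lower. Of 31 tested members of the list of FGF ligands, receptors and MAP kinases, 18 were higher and 7 lower, against 41.0% and 18.7% of all features, with medians of 0.47 and, relative to the spike-in probes, −1.12. The ligand Fgf4 is made by embryonic stem cells themselves; it was at 6.63, 6.57 and 6.29 untreated and at 4.26, 4.18 and 4.23 with 4OHT, a fall of 2.27 ± 0.12 (adjusted p = 2.01e-05) that left 6.9% on the spike-in scale. Rit1, a small GTPase, went from 2.49, 2.27 and 2.52 to 0.04, 0.01 and 0.01, a fall of 2.41 ± 0.10 (adjusted p = 6.23e-06). The receptor Fgfr2 gained 1.02 ± 0.14 (−0.56 on the spike-in scale), the kinase Araf 0.88 ± 0.18 (−0.70), the Ras inactivator Nf1 0.85 ± 0.10 (−0.73) and the phosphatase Ptpn11, which couples receptors to Ras, 0.84 ± 0.08 (−0.75). Each of these 4 kept between 59.5 and 67.8% of its untreated signal on the spike-in scale.

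Targets of BMP and Nodal signalling were mostly lower: 13 of 16 tested members of 18 listed were lower and 1 higher, with a median of −1.97. Nodal, a TGF-beta family ligand, was at 4.45, 4.28 and 4.20 untreated and at −0.51, −0.30 and −0.38 with 4OHT, a fall of 4.71 ± 0.11 (adjusted p = 1.15e-06). Smad7, an inhibitory Smad, fell by 3.84 ± 0.14 (adjusted p = 4.66e-06) and Id2, an inhibitor of helix-loop-helix factors, by 3.64 ± 0.13 (adjusted p = 3.94e-06), from 3.10, 3.13 and 2.90 to −0.41, −0.74 and −0.66. The higher member was Nog, a secreted BMP antagonist, at 0.99 ± 0.15 (adjusted p = 0.00111; −0.59 on the spike-in scale). In the Wnt pathway list 10 of 23 tested members were lower and 6 higher, against 18.7% and 41.0% of all features. Its median of −0.60 turned to 0.04 with normexp and to 0.17 when only features well above background on all 8 arrays were kept. Fzd7, a Wnt receptor, fell by 4.41 ± 0.13 (−1.92 at its other probe), and Axin1, a scaffold of the beta-catenin destruction complex, by 2.53 ± 0.13. The pathway's feedback targets were dim, with falls of at least 3.65-fold for Axin2 and at least 2.80-fold for Dkk1, which with normexp became −0.16 and 0.04. Ctnnb1, which encodes beta-catenin, gained 0.60 ± 0.12 (−0.98 on the spike-in scale; 0.02 with quantile normalization, adjusted p = 0.883).

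**Figure D2:**
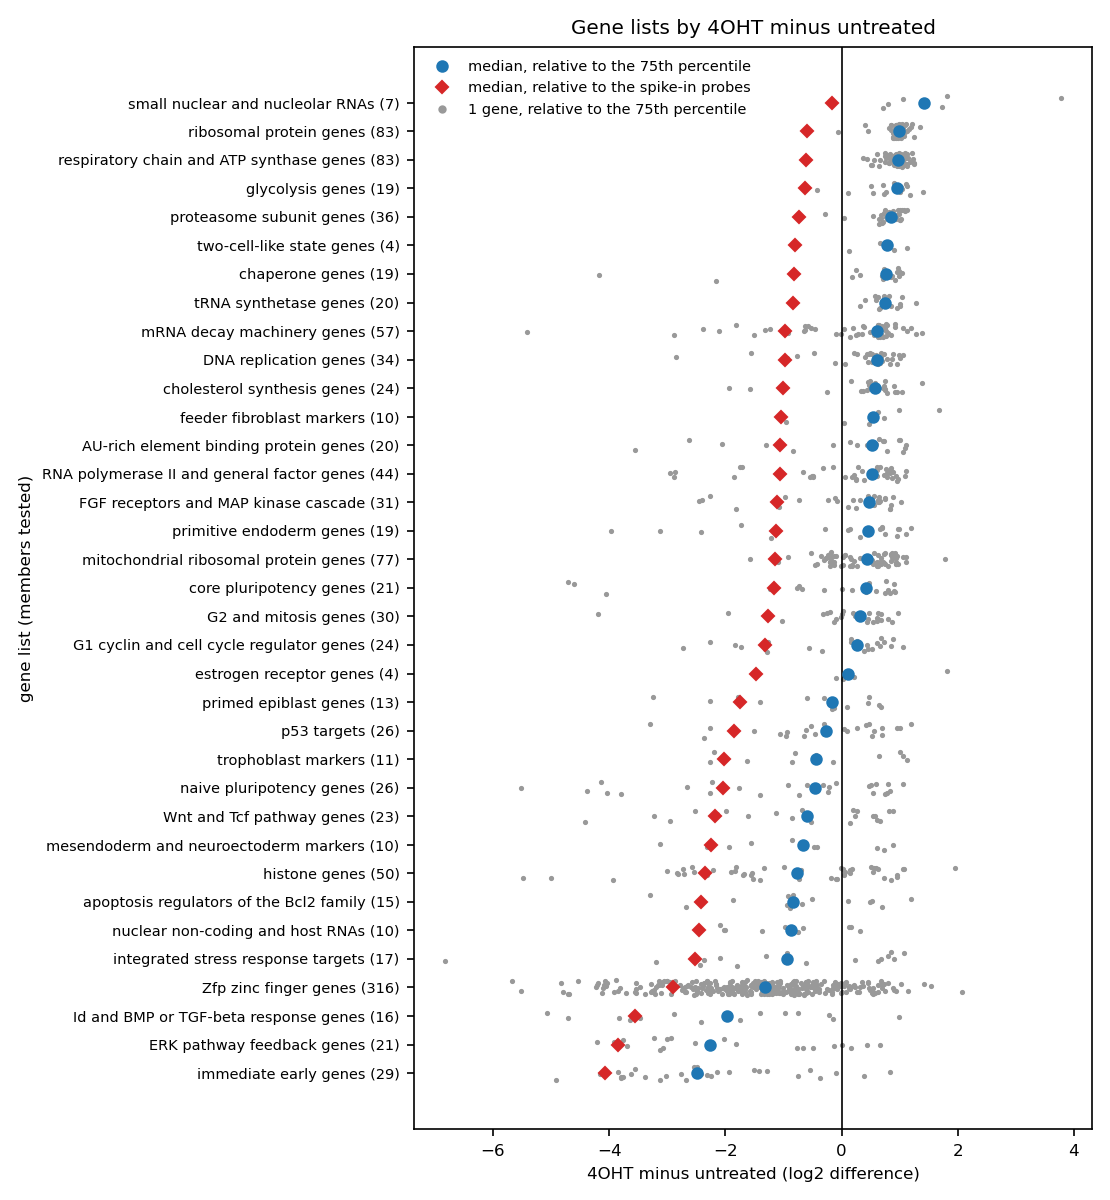
Log2 difference of 4OHT minus untreated (x axis) for the tested members of each gene list (y axis, number tested in brackets): grey points are single genes and blue circles list medians relative to the array's 75th percentile, and red diamonds are list medians relative to the spike-in probes. List medians run from −2.49 for immediate early genes to 1.42 for small nuclear and nucleolar RNAs, and every red diamond lies below 0.

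Pluripotency genes were split between higher and lower calls. Of 26 tested genes of the naive state 14 were lower and 7 higher, with a median of −0.46, and of 21 core pluripotency genes 7 were lower and 9 higher, with a median of 0.42 that turned to −0.45 with quantile normalization. Over all features 41.0% were higher and 18.7% lower, so the share of core genes called higher is near the background. Pou5f1, the POU factor at the centre of the network, was at 6.97, 6.61 and 6.79 untreated and at 7.62, 7.78 and 7.71 with 4OHT, a gain of 0.91 ± 0.12 (adjusted p = 5.94e-04) and a loss of 0.67 on the spike-in scale; quantile normalization gave 0.07 (adjusted p = 0.573). Sox2, its partner, went from 4.49, 4.32 and 4.33 to 0.42, 0.22 and 0.32, a fall of 4.06 ± 0.12 (adjusted p = 2.26e-06) that left 2.0% on the spike-in scale. Pou5f1 kept 62.8% there. Klf4, a zinc finger factor of the naive state, fell by 4.14 ± 0.11 (adjusted p = 1.73e-06), from 5.40, 5.65 and 5.52 to 1.50, 1.33 and 1.32.

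Nanog, the homeobox factor of the naive state, stood at 4.50, 4.28 and 4.44 untreated and at 4.96, 4.97 and 4.69 with 4OHT. The difference of 0.47 ± 0.11 passed (adjusted p = 0.00889) and was −1.12 on the spike-in scale; it went to −0.03 with quantile normalization, and its other probe gave 2.04. With scaling to the array median its adjusted p was 0.0650. Esrrb, a nuclear receptor, was at 7.28, 7.10 and 7.08 untreated and at 6.79, 6.84 and 6.85 with 4OHT, a small fall of 0.33 ± 0.09 (adjusted p = 0.0184) that left 26.6% on the spike-in scale. The call of Esrrb was lost without filtering, with scaling to the array median, and when 4OHT replicate 1 or 4OHT replicate 2 was left out, with adjusted p-values of 0.0548, 0.585, 0.0526 and 0.0507. Other members that fell were Socs3, an inhibitor of LIF signalling (−4.39 ± 0.19), Foxd3, a forkhead repressor (−4.60 ± 0.18), and Gbx2, a homeobox factor (−4.04 ± 0.21; −2.59 with normexp).

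Several abundant markers of the undifferentiated state gained relative to the bulk. Dppa5a, an RNA-binding protein, gained 1.05 ± 0.11 (−0.53 on the spike-in scale), Tdh, the threonine dehydrogenase of mouse embryonic stem cells, 0.80 ± 0.08 (−0.78), and Tcl1, a coactivator of Akt, 0.76 ± 0.13 (−0.83). Stat3, which carries the LIF signal, gained 0.59 ± 0.13 (−0.99), Dnmt3b, a DNA methyltransferase, 0.91 ± 0.21 (−0.67), Tdgf1, a coreceptor of Nodal, 0.90 ± 0.11 (−0.68), and Lin28a, which blocks let-7 maturation, 0.84 ± 0.19 (−0.74). These 7 genes kept between 50.2 and 69.1% of their untreated signal on the spike-in scale. With quantile normalization all but Tdgf1 fell short of the threshold, and Tdh turned to −0.14 (adjusted p = 0.179).

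The transcription factors of later lineages named in this paragraph were lower, whereas Gata5, described further below, was higher. Of 13 tested genes of the primed epiblast 4 were lower: Zic2 (−3.25 ± 0.55; −0.86 with normexp), Sox4 (−2.27 ± 0.13), Otx2 (−1.79 ± 0.14), the homeobox factor of the epiblast and forebrain, which went from 4.94, 4.61 and 4.47 to 2.95, 2.72 and 2.98, and Pou3f1 (−1.41 ± 0.08). In the primitive endoderm list, 8 of 19 tested members were higher and 5 lower, beside 41.0% and 18.7% of all features. Its transcription factors were dim, with a fall of at least 6.07-fold for Sox7 and of at least 2.01-fold for Foxa2 and 1.90-fold for Gata6; with normexp Foxa2 read 0.18 (adjusted p = 0.176) and Gata6 0.32 (adjusted p = 0.0263). Among its higher members were basement membrane genes, with Lama1, a laminin chain, going from 5.30, 5.41 and 5.69 to 6.39, 6.64 and 6.70 (1.11 ± 0.14, adjusted p = 5.73e-04; −0.47 on the spike-in scale; 0.45 and 0.0531 with quantile normalization) and the collagen chains Col4a1 and Col4a2 both gaining 0.98 (SE 0.33 and 0.26). The call of Col4a1 was lost without the filter (0.0627), with quantile normalization (0.0541) and when untreated replicate 1, untreated replicate 2, 4OHT replicate 2 or 4OHT replicate 3 was left out, with adjusted p-values up to 0.105, and that of Col4a2 without untreated replicate 1 (0.0521) or 4OHT replicate 2 (0.0507).

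Among 10 tested mesendoderm and neuroectoderm markers 6 were lower and 3 higher, against 18.7% and 41.0% of all features. Their median of −0.66 turned to 0.13 with normexp. The homeobox genes Gsc (−3.13 ± 0.62; −0.53 with normexp) and Evx1 (−2.31 ± 0.36; −0.77 with normexp) fell, while Tubb3, a neuronal tubulin, gained 0.89 ± 0.11 (−0.69 on the spike-in scale) and Nes, an intermediate filament gene, 0.74 ± 0.14 (−0.84). Of 11 trophoblast markers tested, 4 were lower, against 18.7% of all features. Gata3 (−2.26 ± 0.21, and −0.50 with normexp) and Ascl2 (−2.19 ± 0.09) were among the 4. In the list of feeder fibroblast markers 4 of 10 were higher, near the 41.0% of all features. Fn1, which encodes the matrix protein fibronectin, went from 5.94, 5.90 and 6.04 to 7.56, 7.71 and 7.63, a gain of 1.67 ± 0.09 (adjusted p = 1.90e-05), and stood at 106% of untreated on the spike-in scale, a difference there of 0.09 that did not pass. Thy1 gained 0.49 ± 0.17 (adjusted p = 0.0409), a call lost when any 1 array but untreated replicate 3 was left out, vehicle arrays included, with adjusted p-values up to 0.12; quantile normalization gave 0.37 (0.123), no filter 0.0778 and scaling to the median 0.0675.

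**Figure D3:**
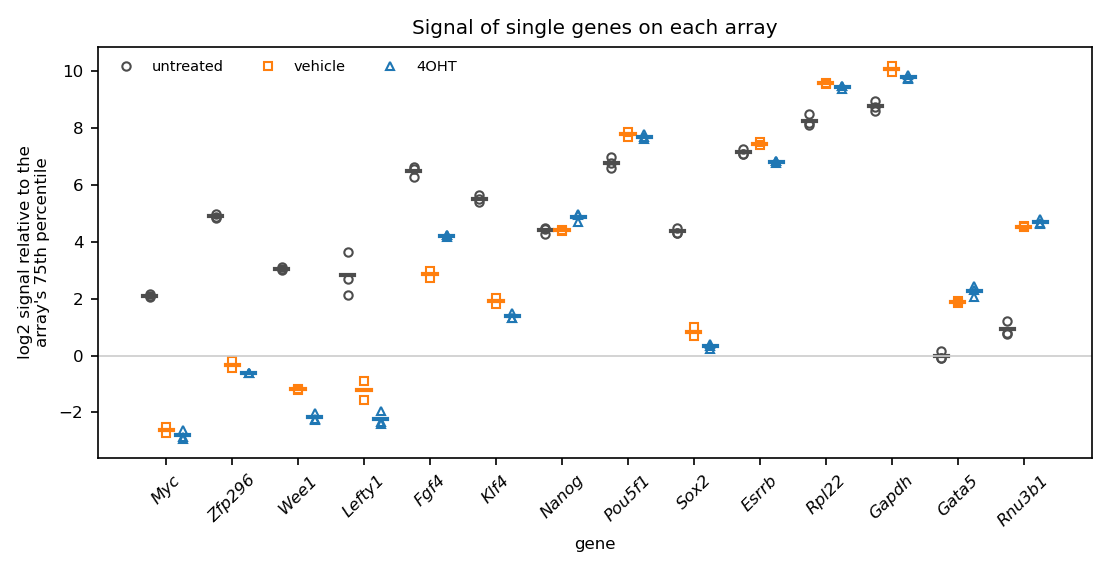
Log2 signal relative to the array's 75th percentile (y axis) of 14 genes (x axis) on each untreated (grey circles), vehicle (orange squares) and 4OHT (blue triangles) array, with a bar at each group mean. Sox2 and Klf4 lie about 4 units lower on the 4OHT than on the untreated arrays, while Pou5f1, Rpl22 and Gapdh lie higher, and Nanog and Esrrb move by less than 0.5.

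Regulators of cell survival and stress were split as well. Of 26 tested p53 targets 12 were lower and 7 higher, against 18.7% and 41.0% of all features, with a median of −0.27. Bbc3, which encodes the death activator Puma, fell by 3.29 ± 0.17 (adjusted p = 1.66e-05), from 3.25, 3.24 and 2.83 to −0.25, −0.11 and −0.20. Sesn2, a stress-induced inhibitor of mTORC1 signalling, fell by 2.36 ± 0.09, Cdkn1a, the cyclin-dependent kinase inhibitor p21, by 2.26 ± 0.10, and Btg2, an anti-proliferative gene, by 1.51 ± 0.25. Bax, the pore-forming member of the Bcl2 family, was higher, at 5.67, 5.51 and 5.43 untreated and at 6.60, 6.78 and 6.82 with 4OHT, a gain of 1.19 ± 0.10 (adjusted p = 1.25e-04; −0.39 on the spike-in scale, which did not pass there). Zmat3, an RNA-binding p53 target, gained 0.95 ± 0.09 (−0.63 on the spike-in scale).

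In the Bcl2 family 8 of 15 tested members were lower and 4 higher, against 18.7% and 41.0% of all features. Mcl1, a survival factor with a short-lived mRNA and protein, was at 5.97, 5.89 and 5.65 untreated and at 4.16, 3.83 and 3.91 with 4OHT, a fall of 1.87 ± 0.14 (adjusted p = 8.50e-05; −2.65 at its other probe). Bcl2l1, the survival factor Bcl-xL, fell by 0.93 ± 0.19, and Bmf, a death activator, by 2.68 ± 0.17. Pmaip1, the death activator Noxa, gained 0.70 ± 0.12 (−0.88 on the spike-in scale). Death activators were thus among the members lower and among those higher.

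Of 17 tested targets of the integrated stress response, 9 were lower and 6 higher, against 18.7% and 41.0% of all features. Beside Chac1, Trib3, a pseudokinase induced by ATF4, fell by 3.20 ± 0.18 (adjusted p = 2.29e-05), from 3.42, 4.06 and 3.81 to 0.57, 0.67 and 0.44, and Cebpb, a leucine zipper factor, by 2.43 ± 0.14 (−1.17 with normexp). Biosynthetic targets were higher, with Asns, asparagine synthetase, at 0.86 ± 0.12 (−0.72 on the spike-in scale; −0.01 with quantile normalization) and Phgdh, of serine synthesis, at 0.90 ± 0.10 (−0.68). Among chaperone genes 15 of 19 were higher and 2 lower, with a median of 0.76 (spike-in −0.82; quantile normalization −0.01). The 2 lower ones were the heat-inducible genes Dnajb1, at 5.24, 5.32 and 5.22 untreated and 1.19, 0.97 and 1.11 with 4OHT (−4.17 ± 0.10, adjusted p = 1.31e-06), and Hspa1a (−2.16 ± 0.18; −0.47 with normexp), whereas the constitutive Hspa8 gained 0.98 ± 0.11 (−0.60 on the spike-in scale; 0.04 with quantile normalization).

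Among 34 DNA replication genes 26 were higher and 4 lower, against 41.0% and 18.7% of all features, with Mcm4, a subunit of the replicative helicase, at 0.99 ± 0.09 (−0.60 on the spike-in scale; 0.18 with quantile normalization, adjusted p = 0.0890). The lower ones included the licensing factors Cdt1 and Cdc6: Cdt1 went from 6.39, 6.22 and 6.26 to 3.54, 3.45 and 3.34, a fall of 2.85 ± 0.11 (adjusted p = 5.65e-06), and Cdc6 fell by 1.56 ± 0.13 at the probe used, whereas its other probe gave 0.40. Of 30 G2 and mitosis genes 13 were higher and 4 lower, near the 41.0% and 18.7% of all features, with a median of 0.32 (spike-in −1.26; quantile normalization −0.10). Fbxo5, the inhibitor Emi1 of the anaphase-promoting complex, fell by 4.20 ± 0.09 (adjusted p = 1.15e-06), Plk1, a mitotic kinase, by 1.95 ± 0.14, and Ccna2, cyclin A2, by 1.03 ± 0.11, from 4.75, 4.66 and 4.53 to 3.72, 3.55 and 3.58. Aurka fell by 0.32 ± 0.10 (adjusted p = 0.0240), a call lost without untreated replicate 1, untreated replicate 2, 4OHT replicate 1 or 4OHT replicate 3 (adjusted p up to 0.0677), without the filter (0.0658) and with scaling to the median (0.587). Birc5, survivin, gained 0.88 ± 0.09 (−0.71 on the spike-in scale; 0.01 with quantile normalization). Among 24 G1 regulators 10 were higher, also near the 41.0% of all features, such as Cdk4 (1.05 ± 0.10; −0.53 on the spike-in scale), and 8 lower, such as E2f3, an activator of S phase genes (−2.73 ± 0.23; −1.10 at its other probe).

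Histone mRNAs were mostly lower, with 28 of 50 tested genes lower and 10 higher, against 18.7% and 41.0% of all features. Their median was −0.77. H2ac4 was at 6.88, 6.93 and 6.78 untreated and at 1.82, 1.82 and 1.94 with 4OHT, a fall of 5.00 ± 0.09 (adjusted p = 1.15e-06) from one of the brightest signals of the list. H1f4 fell by 3.94 ± 0.11 and H4c4 by 3.01 ± 0.11. The replacement histone gene H3f3a, which is expressed outside S phase, gained 1.06 ± 0.10 (−0.53 on the spike-in scale). H4c9 gained 1.95 ± 0.11 at the probe used against 0.27 at its other probe. Histone genes are near-identical copies, and their probes may not tell the members apart.

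Genes of the transcription and decay machinery were mostly higher, with single members far lower. The shares over all features were 41.0% higher and 18.7% lower. Of 44 tested genes of RNA polymerase II and its general factors 26 were higher and 11 lower; the median of 0.53 was −1.05 on the spike-in scale and 0.00 with quantile normalization. Polr2c, a core subunit, was among those higher, at 71.5% of untreated on the spike-in scale, and Med12, of the Mediator kinase module, gained 1.11 ± 0.10 (−0.47 on the spike-in scale). Hexim1, the inhibitor of the elongation factor P-TEFb, fell by 2.95 ± 0.14 (−1.83 with normexp), Med4, a Mediator subunit, by 2.88 ± 0.12, from 3.85, 3.72 and 3.74 to 1.03, 0.82 and 0.82 (−1.56 at its other probe), Ctdp1, the phosphatase of the polymerase tail, by 2.87 ± 0.11, and Cdk7, its kinase in TFIIH, by 1.85 ± 0.09 (−0.27 at its other probe). Of 57 mRNA decay genes 35 were higher and 15 lower, among them Lsm5, of the Lsm ring (1.38 ± 0.10; −0.20 on the spike-in scale), the decapping enzyme gene Dcp2 (1.19 ± 0.13; −0.39), the exosome subunit gene Exosc6 (−2.88 ± 0.08) and Tob1, a recruiter of the CCR4-NOT deadenylase (−2.38 ± 0.15).

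Of 20 genes of proteins that bind AU-rich or related mRNA elements, 12 were higher and 5 lower, against 41.0% and 18.7% of all features. The stabilising protein HuR is encoded by Elavl1, which was at 5.55, 5.60 and 5.53 untreated and 6.63, 6.69 and 6.70 with 4OHT (1.11 ± 0.08, adjusted p = 5.43e-05; −0.47 on the spike-in scale), and Hnrnpd, AUF1, gained 1.08 ± 0.09 (−0.50). Of the destabilising zinc finger genes, Zfp36l2 fell by 2.63 ± 0.08 (adjusted p = 2.70e-06), from 3.31, 3.27 and 3.30 to 0.64, 0.60 and 0.76, and Zfp36, tristetraprolin, fell at least 3.01-fold (adjusted p = 6.11e-05) from a dim start, with −0.08 under normexp (adjusted p = 0.466). Zfp36l1, of the same family, read 0.15 ± 0.15 (adjusted p = 0.420) and did not pass.

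Zinc finger genes named Zfp, the longest list, were mostly lower: 244 of 316 tested were lower and 29 higher, with a median of −1.32 and 13.4% of signal kept on the spike-in scale. The share lower, set against 18.7% over all features, describes genes listed by name. Beside Zfp296 and Zfp87, Zfp830 fell by 4.80 ± 0.13 (adjusted p = 2.00e-06; −3.05 with normexp), from 1.68, 1.59 and 1.45 to −3.07, −3.13 and −3.49. Among nuclear non-coding and host RNAs 7 of 10 tested were lower and 1 higher, against 18.7% and 41.0% of all features. Malat1, a nuclear speckle RNA, fell by 2.03 ± 0.23, Neat1, the scaffold of paraspeckles, by 2.01 ± 0.17 and the snoRNA host gene Snhg12 by 2.10 ± 0.12, from 4.21, 4.03 and 4.24 to 1.88, 2.13 and 2.17, each keeping 7.8 to 8.3% on the spike-in scale. The higher one was Snhg6 (0.32 ± 0.07; −1.26 on the spike-in scale), which turned to −0.20 with quantile normalization, lost its call with scaling to the median (adjusted p = 0.12) and read 0.14 with normexp (0.126).

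Ribosomal protein genes were nearly all higher on the 75th percentile scale. Their mRNAs carry a terminal oligopyrimidine tract, a C followed by pyrimidines at the start of the transcript, and are known for long half-lives. In the RefSeq windows of GRCm38.p6, the letters CTTTT, and also CTTTC and CCTTT, were searched on the transcribed strand from 5 bases before to 11 bases after the first listed start, and matches may overlap. They were found in 12 of 62 ribosomal protein genes with a window (19.4%), against 3.35% of the 11876 tested genes with a window and 8.82% of 68 respiratory chain genes. Matches describe the letters in this window only. To make the tract visible, 4 ribosomal protein genes with a match are shown. Genes on a single chromosome were left out, and the 4 are those with the largest gains among the rest. Each line has 30 bases, of which the first 10 lie before the annotated start, with every matched letter in capitals. Rpl35 has a match on each side of its annotated start, and the first of them lies wholly before it. Rpl38 lies at chr11:114668570-114668599 on the plus strand, Rpl35 at chr2:39005112-39005141, Rps27 at chr3:90213629-90213658 and Rps10 at chr17:27635225-27635254 on the minus strand.
Rpl38: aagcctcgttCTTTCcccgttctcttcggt
Rpl35: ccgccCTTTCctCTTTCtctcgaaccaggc
Rps27: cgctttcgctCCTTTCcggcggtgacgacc
Rps10: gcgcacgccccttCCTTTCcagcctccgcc

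Of 83 ribosomal protein genes tested, 80 were higher on the 75th percentile scale and 3 did not pass. Higher calls were made for 41.0% of all features and for 69.8% of genes in the brightest of the 5 groups by untreated level. The median gain of the ribosomal protein genes was 0.99, and 0.06 with quantile normalization. Relative to the spike-in probes 78 were lower, at a median of −0.59, and the median member kept 66.4%. Rpl22 was at 8.49, 8.20 and 8.12 untreated and at 9.39, 9.50 and 9.49 with 4OHT, a gain of 1.19 ± 0.11 (adjusted p = 1.83e-04), and on the spike-in scale its difference of −0.40 did not pass. Rps21 gained 1.25 ± 0.20 (0.47 and adjusted p = 0.0967 with quantile normalization) and Rpl36a 1.21 ± 0.10, with spike-in differences of −0.33 and −0.37. Near-identical processed pseudogenes exist for these genes, and a probe may read both.

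Genes of energy metabolism and protein turnover moved in the same way. Each count of higher genes in this paragraph stands beside 41.0% of all features. In the brightest of the 5 groups by untreated level, 69.8% of genes were higher. Of 83 respiratory chain and ATP synthase genes 80 were higher, with a median of 0.97 (spike-in −0.61; quantile normalization 0.24). Atp5l, of ATP synthase, went from 6.98, 6.93 and 6.67 to 8.12, 8.08 and 8.11 (1.24 ± 0.11, adjusted p = 1.60e-04). In glycolysis 15 of 19 were higher, with Pfkl, a phosphofructokinase, at 1.40 ± 0.23, Pkm, pyruvate kinase, at 1.17 ± 0.11 and Gapdh at 1.03 ± 0.12 (−0.55 on the spike-in scale). The glycolysis median of 0.96 was 0.09 with quantile normalization and −0.62 relative to the spike-in probes. Among proteasome subunits 32 of 36 were higher, such as Psmd3 (1.12 ± 0.12; 0.28 and adjusted p = 0.0676 with quantile normalization), and 1 was lower, Psmd5 (−0.28 ± 0.09, adjusted p = 0.0273), a call lost when any 1 untreated array, 4OHT replicate 2 or 4OHT replicate 3 was left out (adjusted p up to 0.0963), without the filter (0.0792) and with scaling to the median (0.694). Of 20 tRNA synthetase genes 19 were higher, with Hars at 1.28 ± 0.09. Actb, beta-actin, gained 0.94 ± 0.12 (−0.64 on the spike-in scale), and with quantile normalization Gapdh and Actb read 0.08 and 0.00, neither of which passed.

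Genes of the mitochondrial ribosome were more mixed in direction. Of 77 tested genes of its proteins 39 were higher and 11 lower, beside 41.0% and 18.7% of all features. Their median was 0.43, with −1.15 on the spike-in scale and −0.09 with quantile normalization. Mrps10 went from 3.34, 3.18 and 3.33 to 4.91, 5.14 and 5.15 (1.78 ± 0.11, adjusted p = 3.28e-05), while Mrpl43 fell from 5.67, 5.50 and 5.56 to 4.03, 3.92 and 4.06 (−1.57 ± 0.09, adjusted p = 2.41e-05; −1.74 at its other probe). In cholesterol synthesis 17 of 24 genes were higher, among them Acat2 (1.38 ± 0.23; −0.20 on the spike-in scale), and 2 lower, among them Sqle, squalene epoxidase, at 4.79, 4.40 and 4.41 untreated and 2.89, 3.01 and 2.99 with 4OHT (−1.57 ± 0.13).

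Few genes gained signal on both scales. The largest was Rnu3b1, a U3 small nucleolar RNA that guides ribosomal RNA processing, at 0.77, 1.20 and 0.80 untreated and at 4.82, 4.64 and 4.65 with 4OHT, a gain of 3.78 ± 0.13 (adjusted p = 4.07e-06) and of 2.20 on the spike-in scale. All 7 small nuclear and nucleolar RNAs tested were higher, against 41.0% of all features, at a median gain of 1.42. Relative to the spike-in probes their median was −0.16, with 1 higher and 3 lower. Snora47 gained 1.82 ± 0.20 (0.23 on the spike-in scale), Rnu1b6, a U1 RNA, 1.72 ± 0.09 (0.14) and Rmrp, the RNA of RNase MRP, 1.42 ± 0.11 (−0.16), and none of these 3 passed on the spike-in scale. U1 and U3 genes have near-identical copies that a probe may not separate.

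The other genes higher on the spike-in scale included Galns, a lysosomal sulfatase, at 0.77, 0.67 and 0.71 untreated and at 2.80, 3.28 and 3.17 with 4OHT (2.37 ± 0.15, adjusted p = 3.45e-05; 0.78 on the spike-in scale). C5ar2, a complement receptor, gained 2.32 ± 0.11 (0.73), with 2.38 at its other probe, and Gata5, a zinc finger transcription factor, went from 0.15, −0.09 and −0.09 to 2.05, 2.44 and 2.30 (2.27 ± 0.13; 0.69). For 4 further genes the probes disagreed: Timmdc1 gained 2.39 ± 0.14 against 0.60 at the other probe, Slc35e1 2.23 ± 0.12 against 0.57, Zfp282 2.07 ± 0.15 against −1.44, and Fam13c 2.05 ± 0.16 against −0.64. With the mean of its probes, Zfp282 read 0.31 (adjusted p = 0.119). Prob1 was not well above background on any untreated or vehicle array and was so on all 3 4OHT arrays, at −3.63, −3.17 and −2.88, a gain of at least 4.54-fold (adjusted p = 1.99e-04).

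The vehicle group received the same transcription block without 4OHT. Both groups are set against the same untreated arrays. Vehicle against untreated gave 41.5% of features higher and 15.9% lower, next to the 41.0% and 18.7% above, with list medians of −2.64 for immediate early genes, −2.23 for ERK feedback genes, −1.28 for Zfp genes and 1.16 for ribosomal protein genes. Tested directly against vehicle, the 4OHT arrays were higher for 263 features (0.923%) and lower for 734 (2.58%). Of the 1228 list members tested, 24 were higher and 44 lower. The vehicle arrays are 2 and lie on the other slide.

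The members higher with 4OHT than with vehicle that are named here, except Fgf4 and Cdkn1a, were chosen after their values were seen. Epha2, a receptor tyrosine kinase, was at 3.95, 4.14 and 3.70 untreated, at 0.55 and 0.88 with vehicle and at 3.10, 3.37 and 3.30 with 4OHT. Its fall was thus 0.67 ± 0.15 with 4OHT and 3.21 ± 0.17 with vehicle, and the difference between them was 2.54 ± 0.17 (adjusted p = 0.00286). Hbegf, a ligand of the EGF receptor, read 1.96, 1.96 and 2.11 untreated, −0.19 and −0.10 with vehicle and between 1.93 and 2.13 with 4OHT (4OHT over vehicle 2.17 ± 0.10), and on the spike-in scale it was 1.57 below untreated with 4OHT. Errfi1, a feedback inhibitor of the EGF receptor, was 0.61 ± 0.12 above vehicle and Ier3, an immediate early gene, 1.33 ± 0.21 above it. Fgf4 had fallen by 3.63 ± 0.14 with vehicle and was 1.36 ± 0.14 higher with 4OHT (adjusted p = 0.00900). The kinase genes Pim3 and Plk3 were 2.34 ± 0.10 and 2.10 ± 0.17 above vehicle, and the p53 targets Mdm2 (0.82 ± 0.13), Gadd45a (0.82 ± 0.10) and Cdkn1a (0.58 ± 0.11) were above it too. Members of the same lists also went the other way. Of the p53 targets 5 were higher than vehicle and 2 lower, Sesn2 (−0.71 ± 0.10) and Bbc3 (−1.54 ± 0.19). Of the ERK feedback genes 3 were higher and 1 lower, Etv5 (−0.53 ± 0.11). Of the immediate early genes 2 were higher and 1 lower, Egr4, which was not well above background on any 4OHT array. Dusp6, Spry4, Egr1 and Myc did not pass against vehicle, with differences of 0.64, 0.55, −0.08 and −0.20 and adjusted p-values of 0.185, 0.475, 0.894 and 0.466. Fos passed (adjusted p = 0.0179), and since it was below background in both groups no fold is given. On the spike-in scale every 4OHT minus vehicle difference moves down by the same amount. There the array's 75th percentile was at 33.4% of untreated with 4OHT and at 41.3% with vehicle. The shift favours lower calls over higher ones, so it is no separate test of a gene. On that scale 5 of the 24 members remained called higher: Epha2 (2.23), Pim3 (2.03), Hbegf (1.86), Plk3 (1.79) and Fgf4 (1.05, adjusted p = 0.0373). The calls of Ier3 (1.02), Mdm2 (0.52), Gadd45a (0.51), Errfi1 (0.30) and Cdkn1a (0.27) ended there, with adjusted p-values of 0.0661, 0.15, 0.188, 0.362 and 0.451, and so did that of Fos (0.112).

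Among the 44 members lower with 4OHT than with vehicle, Med4, of Mediator, was at 2.88 and 2.52 with vehicle and at 1.03, 0.82 and 0.82 with 4OHT, 1.81 ± 0.14 below (adjusted p = 0.00418), and Ctdp1 was 1.67 ± 0.13 below. Among death activators, Bmf was 1.68 ± 0.19 below vehicle and Bbc3 1.54 ± 0.19 below. Rit1 (−1.68 ± 0.11) and Id2 (−0.95 ± 0.14) fell further with 4OHT than with vehicle. In the cell cycle lists Cdt1 was 1.18 ± 0.12 below vehicle, Plk1 1.12 ± 0.15 and Ccna2 1.06 ± 0.12. Relative to the 75th percentile, Ccna2 did not differ from untreated with vehicle by more than its error (0.03 ± 0.12), and its 4OHT arrays lay below every vehicle and untreated array. With vehicle that percentile was itself at 41.3% of untreated on the spike-in scale, so on that scale Ccna2 was below untreated with vehicle too. Esrrb differed in direction, at −0.33 ± 0.09 with 4OHT and 0.30 ± 0.10 with vehicle, a difference of −0.63 ± 0.10 (adjusted p = 0.0276). That holds on the 75th percentile scale only: relative to the spike-in probes Esrrb was lower in both groups, at −1.91 with 4OHT and −0.98 with vehicle, a difference of −0.93 (adjusted p = 0.0379). Axin1 was 0.93 ± 0.14 below vehicle. The change to the spike-in scale moves all of these differences down by the same amount, so a kept lower call is no separate test. On that scale 37 of the 44 remained called lower. Among them were Med4 (−2.11), Ctdp1 (−1.98), Bmf (−1.99), Bbc3 (−1.84), Rit1 (−1.99), Id2 (−1.26), Cdt1 (−1.49), Plk1 (−1.43), Ccna2 (−1.37) and Axin1 (−1.23). Wee1, which is in no list, was 0.99 ± 0.11 below vehicle (adjusted p = 0.00954).

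**Figure D4:**
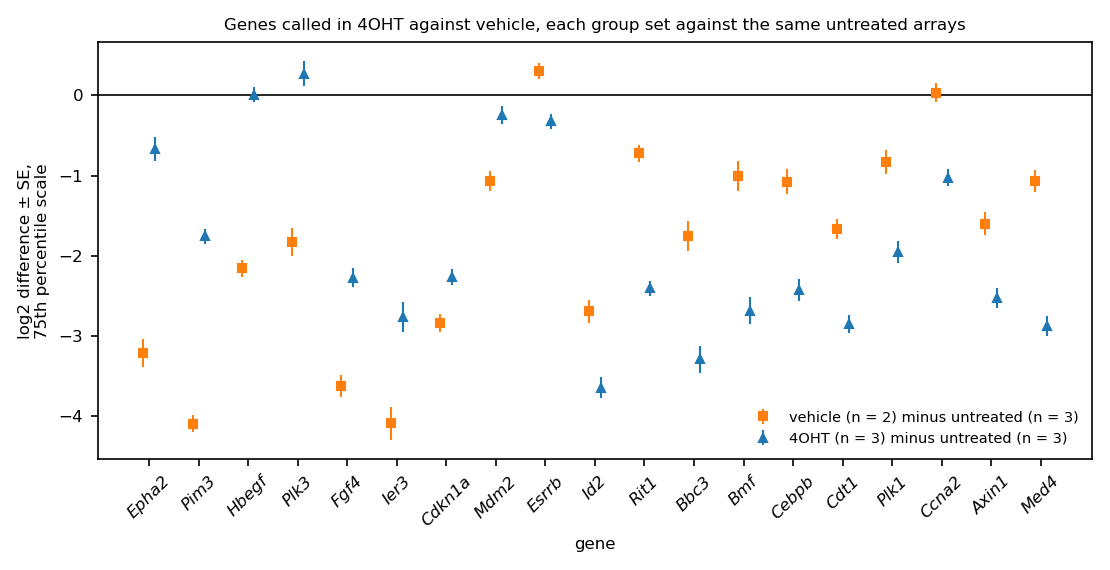
Log2 difference from the same 3 untreated arrays, relative to the array's 75th percentile (y axis, with the standard error of the fit), of 19 list members called in 4OHT against vehicle (x axis), for vehicle (orange squares, n = 2) and 4OHT (blue triangles, n = 3). Epha2, Pim3, Hbegf and Plk3 lie more than 2 units higher with 4OHT than with vehicle, while Med4, Rit1, Bmf and Bbc3 lie more than 1.5 units lower.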

How the data were processed

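Per the labels' protocols, 100 ng of total RNA was amplified and labelled. The deposited spot intensity is background-subtracted by Agilent Feature Extraction (version 11.0.1.1), per the file headers; the label says Cy5, the files hold the green channel. The deposited value table equals it within 0.5% (column medians 21.2, 45.0 and 24.6 untreated, 12.2 and 13.9 vehicle, 13.5, 11.3 and 12.4 4OHT). Controls (3671 of the spots) and outlier spots were left out, which removed 466 probes; no spot was saturated (0). Probes well above background on every array of a group were kept (33008); the brightest represents a gene. Symbols come from RefSeq (GRCm38.p6, names only; the headers name mm9). For all 28491 features, limma (version 3.58.1, R 4.3.3) was run with lmFit and eBayes on the 8 arrays, leaving 5 residual degrees of freedom. On simulated data, 73 of 100 features changed 4-fold and 44 of 100 changed 2-fold were called, as were 11 of 28291 unchanged ones, and every changed one had the right sign. The share of features changed there was far below the 59.8% called in the data, so these rates do not measure the sensitivity here. Array number limits precision, with a median SE of 0.15. Members and lists were chosen with earlier results of these data known. Named genes are the largest non-overlapping called changes, fixed genes, and up to 4 called members per list and direction. Alternatives covered background, scaling, filter, probes, fit and left-out arrays. Some results are not reported here.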

Additional observations from a re-analysis of the deposited data

How the results depend on the processing

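Both scales are given in the order all, higher and lower calls of 4OHT against untreated. With 1 array left out at a time the 75th percentile scale gave 15217 to 17169 calls (10318 to 11750 higher, 4789 to 5419 lower) and the spike-in scale 24513 to 26913 (26 to 32, 24486 to 26881). Counts moved by over 1.5 times under 2 settings: a minimum log2 difference of 1 left 5873 calls (2412 higher, 3461 lower) and, on the spike-in scale, 13 higher ones; normexp background correction gave 20018 higher. Quantile normalization, scaling to the median, the deposited value table, no filter, the stricter filter, the mean of probes, a trended robust fit and the fit of 6 arrays stayed within that range. Directions turned for Foxa2 (0.18), Gata6 (0.32), Dkk1 (0.039) and the medians of mesendoderm and neuroectoderm markers (0.13) and Wnt genes (0.041) with normexp, and for the Wnt median (0.17) with features well above background on all 8 arrays. With quantile normalization they turned for Nanog (−0.029), Tdh (−0.14), Asns (−0.013), Actb (−0.0029), Snhg6 (−0.20) the median of RNA polymerase II and general factor genes (−0.0037) and the medians of core pluripotency (−0.45), mitochondrial ribosomal protein (−0.093), chaperone (−0.013) and G2 and mitosis genes (−0.10). The cause was not tested. The median of estrogen receptor genes (4 tested), 0.12, ran from −0.018 to 0.19 with 1 array left out. Of 150 named genes, 8 changed direction and 32 lost their call under at least 1 setting, some doing both. With the replicate number as a block there were 16464 calls (11194, 5270), and 26202 (28, 26174) on the spike-in scale. Under the block the calls of Maff (adjusted p = 0.0928) and Psmd5 (0.0565) were lost. Same-numbered arrays correlated at −0.04, −0.14 and 0.11 in their deviations, so the numbers do not pair the samples, and not every array correlated best with its own number. A fit with slide as a block was not run, because slide and 4OHT coincide. Genes near background limit the size of falls.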
